A study of Homo sapiens with 24 samples.

Results

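Secreted proteins of the extracellular matrix were examined in DBTRG-05MG, T98G, U251MG, and U87MG, 4 established lines of glioblastoma cells. The set held 10 genes, found by their symbols among the 43037 genes of the deposited table: EMILIN1, EMILIN2, MMRN2, SMOC1, SMOC2, SPARC, SPOCK1, FBLN1, NDNF, and ITIH5. The “WWOX” variant of each line had been made by stable lentiviral transduction (GIPZ system) to raise WWOX, a gene coding for an oxidoreductase with WW domains. The “Vec” variant had received the Puro-Blank control system, and both variants were selected with puromycin. The study's methods state that T98G was cultured in MEM, U87MG and U251MG in EMEM, and DBTRG-05MG in RPMI medium. Where levels are compared between lines of different media, line and medium cannot be told apart. Each of the 8 groups had 3 libraries, named biological replicates in the study, so that there were 24 libraries. Expression was read by CAGE-Seq, which counts tags at the 5′ ends of capped transcripts, and is given as CPM (tags of a gene, scaled to the same total in every library). A transcript gives 1 tag end whatever its length, so CPM were not divided by length.

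The 2 variants of a line were separately transduced and selected populations, and whether the 3 libraries of a group came from separate transductions is not given in the sources used here. An effect of WWOX and a difference between selected populations therefore cannot be told apart. In bulk RNA, fewer cells expressing a gene and less RNA per cell cannot be told apart either. Libraries held between 10756072 and 16953689 tags, with a median of 14584829. Counts of 3 tags or fewer were treated as the limit of detection, which was 0.177 to 0.279 CPM depending on the depth of the library. These limits cover counting error only.

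The matrix is a network of secreted proteins that holds cells and stores growth factors. EMILIN1, EMILIN2, and MMRN2 (multimerin 2) belong to a family of large glycoproteins with an EMI domain. EMILIN1 associates with elastic fibres, and MMRN2 is known from the endothelium. SPARC, SMOC1, SMOC2, and SPOCK1 (testican 1) share calcium-binding and follistatin-like modules and act as matricellular proteins, which modulate contacts between cells and matrix more than they build structure. FBLN1 (fibulin 1) is a component of elastic fibres and basement membranes. NDNF is a secreted glycoprotein first described as a neurotrophic factor, and ITIH5 is a heavy chain of the inter-alpha-trypsin inhibitor family, whose members bind hyaluronan.

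Of the 10 genes, 8 reached 5 CPM in at least 1 library and entered the model of all 12327 genes tested. EMILIN1, with at most 3.41 CPM, and MMRN2, with 5 tags in all 24 libraries together, did not. The genes were chosen by their function as secreted matrix proteins, with levels and log2FC of “WWOX” versus “Vec” from these libraries known, so these values count as used for the choice. Their levels and log2FC are therefore a description without a test, and “called” states only that a gene was past the threshold of the model (adjusted p of 0.05, limma with the Benjamini-Hochberg method). In U87MG, EMILIN2 was called lower, while 3.2% of all genes tested were called and 1.66% were called lower. In T98G, SMOC1 was called lower, with 1.14% of all genes called and 0.803% called lower. In U251MG, ITIH5 was called lower and NDNF higher, with 0.316% of all genes called, 0.203% lower and 0.114% higher. In DBTRG-05MG, SMOC2 was called lower, with 1.02% of all genes called and 0.503% called lower. SMOC2 and ITIH5 passed the filter only through the “Vec” group in which they are high. Each of these 5 genes was called in 1 line, and whether the difference was particular to that line was not tested.

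**Figure D1:**
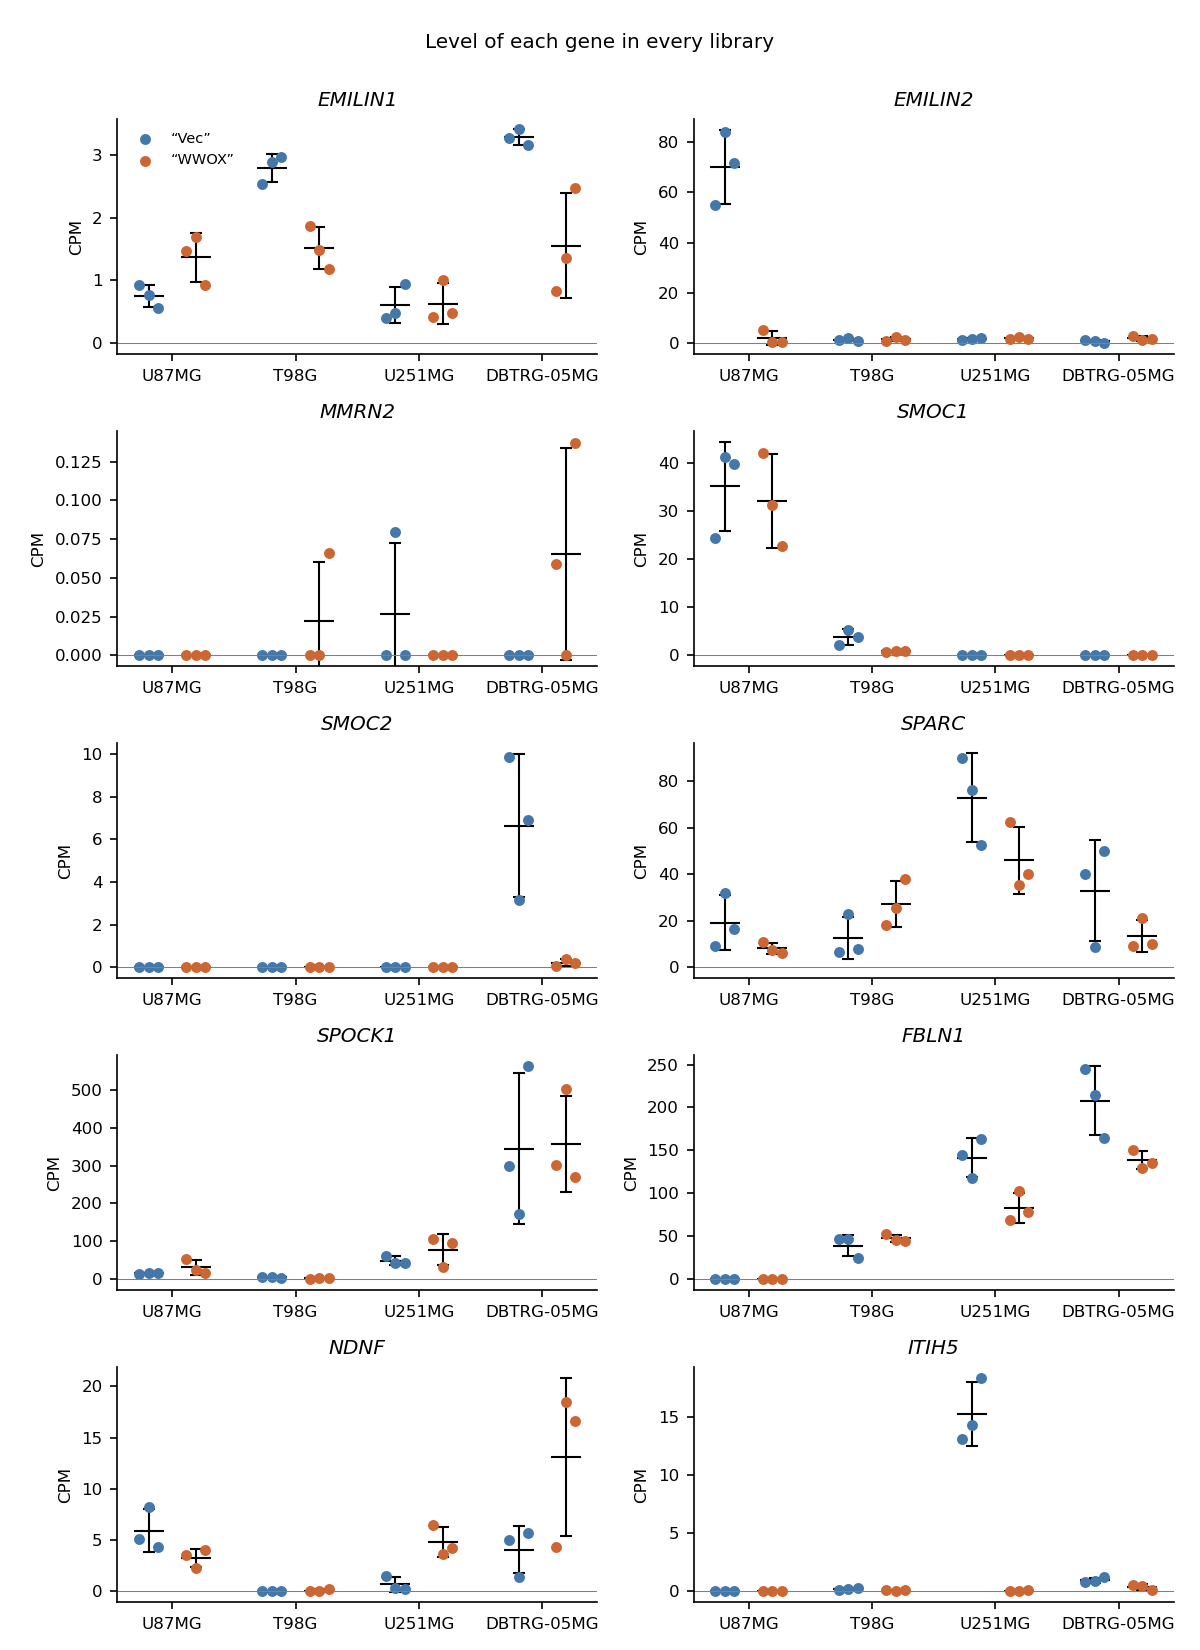
Each panel shows 1 gene, with CPM on a linear axis and the 4 lines side by side. Blue points are single “Vec” libraries, orange points are single “WWOX” libraries, and the black line and bar are the mean ± SD (n = 3). The single high groups are seen for EMILIN2 in U87MG “Vec” (mean of 70.2 CPM), SMOC2 in DBTRG-05MG “Vec” (6.65 CPM), and ITIH5 in U251MG “Vec” (15.2 CPM), while SPARC shows wide, overlapping groups in every line.

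WWOX itself was measured first. In U87MG it was at 40.1, 33.9, and 39.8 CPM in “Vec” and at 66.0, 61.3, and 61.0 CPM in “WWOX,” and in DBTRG-05MG at 20.4, 22.2, and 21.3 CPM against 32.0, 28.2, and 28.0 CPM. The groups of these 2 lines did not overlap. In T98G the values of 38.6, 57.2, and 34.2 CPM in “Vec” overlapped with 45.1, 61.8, and 60.0 CPM in “WWOX.” In U251MG they were 31.4, 36.8, and 32.1 CPM in “Vec” and 56.7, 17.4, and 38.0 CPM in the libraries labelled “WWOX,” of which 1 lay below every “Vec” library. Log2FC of 0.66 (U87MG), 0.39 (DBTRG-05MG), 0.38 (T98G), and −0.01 (U251MG) were obtained, none of them called in the main model. In U87MG, WWOX was called with DESeq2 and when U251MG “WWOX” replicate 1 was left out, which enters the shared estimate of the spread. With a library of its own line left out, log2FC was 0.52 in T98G without “Vec” replicate 2, and in U251MG it was −0.30, 0.23, and 0.01 without “WWOX” replicates 1, 2, and 3, none of these called. Whether tags of the introduced copy were counted on WWOX is not given in the sources used here, so these values do not check the labels. The study's methods state that the transduction was verified by Western blot of protein, which is not part of the data used here.

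The libraries labelled “WWOX” of U251MG stood apart from each other. Over all genes tested, their mean correlations with the other libraries of the group were 0.906, 0.904, and 0.930 for replicates 1, 2, and 3. T98G “Vec” replicate 2 had 0.949, and the other libraries lay between 0.963 and 0.983. Without U251MG “WWOX” replicate 2, 557 genes were called in U251MG in place of 39, and without T98G “Vec” replicate 2, 394 genes were called in T98G in place of 140. Log2FC of WWOX, of the 10 genes, and of the genes called among other matrix genes are given with and without these libraries, where the gene still passed the filter and was above the limit of detection.

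The lines were checked against cell type markers. GFAP, the intermediate filament of astrocytes, was at 3115, 2815, and 2035 CPM in U251MG “Vec” and at 114, 2506, and 3226 CPM in the libraries labelled “WWOX,” but averaged only 1.99 to 6.12 CPM in the groups of the other lines. S100B, another glial gene, was at 343, 154, and 265 CPM against 31.8, 228, and 144 CPM in U251MG, so that “WWOX” replicate 1 was the lowest of this line for both genes. VIM was between 13.5 and 71.7 CPM in every library. Of the 6 endothelial genes, PECAM1 and CLDN5 did not exceed 3 tags in any of the 24 libraries, whereas ESAM did in 14 (up to 7.86 CPM), TEK in 8 (up to 0.695 CPM), CDH5 in 6 (up to 13.2 CPM, all 6 of U251MG), and VWF in 2. Of the immune genes, PTPRC, AIF1, and CD3E did not exceed 3 tags in any library, CD68 did in 5, and CD14 in 1. KRT18 was the most abundant of the epithelial genes, with up to 1260 CPM, whereas CDH1 was at 3 tags or fewer in 21 libraries.

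The sequences just before the RefSeq starts of the 4 genes called lower are shown because CAGE-Seq reads where transcripts start. RefSeq promoter windows (GRCh38.p14) were matched for 7 of the 10 genes. Capitals mark matches to the GC box (GGGCGG), the AP-1 motif (TGANTCA), the CCAAT box (CCAAT), and the TATA box (TATAAA), each searched on both strands of the 250 bases before the start. The E box CACGTG was searched too and had no match in these windows. Bases that GENCODE 44 places in a UTR are left out, so that 218 bases are shown for ITIH5 and 217 for SMOC2. The EMILIN2 piece is chr18:2846756-2847005 (plus strand), the ITIH5 piece is chr10:7666999-7667216 (minus strand), the SMOC2 piece is chr6:168440934-168441150 (plus strand), and the SMOC1 piece is chr14:69879166-69879415 (plus strand). The RefSeq start of SMOC1 lies 25.3 kb inside the gene as GENCODE 44 places it, so that this piece is not the sequence before the start given for the gene further down, while for EMILIN2, ITIH5, and SMOC2 the starts of both sources are 0, 32, and 33 bases apart.
EMILIN2: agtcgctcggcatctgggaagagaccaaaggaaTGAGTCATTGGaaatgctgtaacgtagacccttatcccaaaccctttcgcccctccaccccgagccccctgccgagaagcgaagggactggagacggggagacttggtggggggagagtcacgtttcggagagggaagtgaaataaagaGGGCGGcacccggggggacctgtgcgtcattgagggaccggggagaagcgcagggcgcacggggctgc
ITIH5: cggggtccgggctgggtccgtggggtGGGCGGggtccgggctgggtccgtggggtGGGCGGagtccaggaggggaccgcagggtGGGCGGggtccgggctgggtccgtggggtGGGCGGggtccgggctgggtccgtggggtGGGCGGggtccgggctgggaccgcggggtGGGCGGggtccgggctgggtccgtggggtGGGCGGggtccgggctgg
SMOC2: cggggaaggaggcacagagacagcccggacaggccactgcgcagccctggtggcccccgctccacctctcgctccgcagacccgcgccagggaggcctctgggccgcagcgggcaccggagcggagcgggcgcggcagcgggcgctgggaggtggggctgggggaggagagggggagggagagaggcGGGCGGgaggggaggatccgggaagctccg
SMOC1: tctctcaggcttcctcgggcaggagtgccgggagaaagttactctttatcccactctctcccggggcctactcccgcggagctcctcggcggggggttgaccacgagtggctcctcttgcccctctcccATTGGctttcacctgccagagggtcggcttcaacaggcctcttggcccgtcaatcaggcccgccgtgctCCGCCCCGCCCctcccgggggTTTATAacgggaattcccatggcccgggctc

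In the full 250 bases, the ITIH5 window held 8 GC boxes within a repeated unit, and 28 CpG dinucleotides against a median of 11 over all 35116 windows of the table. SMOC2 had 2 GC boxes and 24 CpG. SMOC1 had 17 CpG, 2 GC boxes that share 1 base, a CCAAT box on the opposite strand, and a TATA box on the opposite strand. EMILIN2 had 17 CpG, 1 GC box, and 1 match to AP-1, which shares 1 base with a CCAAT box on the opposite strand. Over all windows, a GC box was found in 42.6%, CCAAT in 32.0%, TATAAA in 10.7%, the AP-1 motif in 6.57%, and the E box in 6.35%. All 4 windows held a GC box and had a CpG count and a GC content above the medians of the table, with a GC content of 61.6% for EMILIN2, 65.6% for SMOC1, 75.2% for SMOC2, and 82.8% for ITIH5 against a median of 58.0%. A match describes letters and is not a site of binding. The table of genes does not separate start sites, so that tags could not be placed within these windows.

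EMILIN2 (ENSG00000132205.11, chromosome 18, 2847006 to 2916003, plus strand, hg38) was abundant in a single group. U87MG “Vec” libraries had 54.9, 84.2, and 71.6 CPM, and U87MG “WWOX” libraries had 5.38, 0.475, and 0.678 CPM. The groups were far apart. Of the “WWOX” libraries, replicate 1 was above every library of the other lines, which reached 2.95 CPM, and replicates 2 and 3 were within their range. Mean CPM fell from 70.2 ± 14.7 to 2.18 ± 2.78 (SD, n = 3), with a log2FC of −5.29 (standard error 0.49). EMILIN2 was called under all 10 alternatives and with each library left out, and without U87MG “WWOX” replicate 1, the highest of its group, log2FC was −6.11. In the other 3 lines the group means ran from 0.825 to 1.94 CPM and the variants overlapped, with log2FC of 0.83 in DBTRG-05MG, 0.17 in U251MG, and 0.15 in T98G. It was 0.34 in T98G without “Vec” replicate 2, and −0.13 to 0.33 in U251MG with 1 “WWOX” library left out. From the second to the last place of the order of the 8 groups, each group overlapped with the next.

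The annotation places ENSG00000289061 and LPIN2 on the opposite strand of EMILIN2, and whether tags were counted by strand is not given in the sources used here. LPIN2, the nearest start after EMILIN2, had a log2FC of −0.14 in U87MG. SMCHD1, the nearest before it, had −0.29. Within 500 kb there were 7 tested genes, none called, with log2FC from −0.37 to 0.12. The median of the 177 tested genes of chromosome 18 in U87MG was 0.28 above that of all genes.

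In the same line, the summed level of 7 fibroblast and pericyte markers was 270, 501, and 661 CPM in U87MG “Vec” libraries, in ascending order, and 118, 133, and 243 CPM in “WWOX” libraries. The groups did not overlap, and 0 of the 7 genes in “Vec” and 2 in “WWOX” were at 3 tags or fewer in every library, RGS5 being at 0 in “WWOX.” The gene of this list that was most abundant over all libraries, THY1, averaged 0.244 CPM in U87MG “Vec” and 0.148 CPM in “WWOX.” Most of the sum came from COL1A1, which averaged 354 and 94.5 CPM, and COL1A2, which averaged 105 and 40.2 CPM. Not all genes of the list were lower, since LUM averaged 0.190 and 6.73 CPM, DCN 1.16 and 5.90 CPM, and PDGFRB 16.3 and 17.1 CPM. The part of these genes in the EMILIN2 result was not tested.

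EMILIN1 (ENSG00000138080.14, chromosome 2, 27078615 to 27086403, plus strand) was detected in all 24 libraries, but at a low level. In T98G it had 2.53, 2.88, and 2.96 CPM in “Vec” and 1.86, 1.48, and 1.19 CPM in “WWOX.” DBTRG-05MG had 3.27, 3.41, and 3.16 CPM against 0.826, 1.36, and 2.47 CPM. All “WWOX” libraries were below all “Vec” libraries in both lines, and such separation in either direction was found for 16.2% of genes tested in T98G and 19.7% in DBTRG-05MG. In U87MG the direction of the means was opposite, 0.752 ± 0.182 in “Vec” and 1.37 ± 0.39 CPM in “WWOX,” and the highest “Vec” library (0.923 CPM) was barely under the lowest “WWOX” library (0.932 CPM), with overlap once the libraries were scaled. In U251MG the means were 0.607 and 0.629 CPM. Since EMILIN1 stayed under the filter, no log2FC of the main model exists for it.

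MMRN2 (ENSG00000173269.14, chromosome 10, 86935540 to 86969481, minus strand) was at or near 0. Only 4 libraries had any tag, and the highest value was 0.137 CPM in a DBTRG-05MG “WWOX” library. All 8 groups were at or under the limit of 3 tags per library. Of the endothelial genes, CLDN5 and PECAM1 also stayed at or under that limit, but CDH5 in U251MG and ESAM in DBTRG-05MG were detected above it in every library.

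SMOC1 (ENSG00000198732.11, chromosome 14, 69854131 to 70032366, plus strand) was high in U87MG, lower in T98G, and undetectable in the other lines. U87MG had 24.4, 41.1, and 39.8 CPM in “Vec” and 42.1, 31.1, and 22.6 CPM in “WWOX,” which overlapped, with a log2FC of −0.20 (standard error 0.26). T98G had 2.18, 5.33, and 3.81 CPM in “Vec” and 0.744, 0.891, and 0.792 CPM in “WWOX.” Here the groups were separate, and the “WWOX” libraries hardly varied. The mean fell from 3.77 ± 1.57 to 0.809 ± 0.075 CPM, with a log2FC of −1.66 (standard error 0.26). Without T98G “Vec” replicate 2, the library that stood apart, log2FC was −1.47 and SMOC1 was still called. It was not called when T98G was modelled alone, a model that called 0 of all genes tested. In U251MG and DBTRG-05MG all groups were at or under 3 tags per library, so no fold change is given.

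The pseudogene RPL7AP6 lies on the opposite strand of SMOC1. Within 500 kb, 3 genes were tested, all before the start, and none was called in T98G, with log2FC between −0.10 and 0.09. Summed endothelial markers were 0.856, 1.12, and 1.25 CPM in T98G “Vec” and 0.465, 0.594, and 0.660 CPM in “WWOX,” in ascending order, without overlap. Of these 6 genes, 4 in “Vec” and 3 in “WWOX” were at 3 tags or fewer in every library, CDH5 was at 0 in “Vec,” PECAM1 and CLDN5 were at 0 in “WWOX,” and ESAM averaged 0.529 and 0.248 CPM. The fibroblast and pericyte marker PDGFRB was at 54.1, 66.7, and 60.6 CPM in T98G “Vec” and at 33.4, 33.4, and 30.5 CPM in “WWOX.” Its log2FC of −0.89 was not called. The sum of that list overlapped, with 410 to 557 CPM in “Vec” and 312 to 488 CPM in “WWOX.” The part of these markers in the SMOC1 result was not tested.

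SMOC2 (ENSG00000112562.19, chromosome 6, 168441151 to 168673445, plus strand) was detected in DBTRG-05MG alone, and every library of the other 3 lines had 0 tags. A count of 0 allows up to 3 tags, the limit of detection given above. DBTRG-05MG “Vec” libraries had 9.89, 3.15, and 6.92 CPM, and “WWOX” libraries had 0.0590, 0.389, and 0.206 CPM. The groups did not overlap, although the “Vec” libraries varied widely among themselves. Mean CPM fell from 6.65 ± 3.37 to 0.218 ± 0.165, with a log2FC of −3.16 (standard error 0.25). The gene was called with each library left out and under 9 of 10 alternatives, but not with DESeq2, where log2FC was −4.97. The paralogs SMOC1 and SMOC2 were thus detected in different lines. Both had lower values in “WWOX” in the line where they were called, but SMOC1 overlapped in U87MG, where it was highest (log2FC −0.20). Since the genes were chosen with these values known, no shared direction is read. No tested gene had its start within 500 kb of SMOC2.

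In DBTRG-05MG, the summed levels of 2 lists of markers of other cells were lower in “WWOX” too. Summed epithelial markers were 926, 967, and 1290 CPM in “Vec” and 505, 713, and 754 CPM in “WWOX,” in ascending order. Fibroblast and pericyte markers were 11.6, 11.7, and 11.9 CPM against 6.10, 7.06, and 7.96 CPM. KRT18, the most abundant epithelial gene, averaged 1037 and 637 CPM, and THY1 averaged 8.88 and 2.92 CPM. Other genes of these lists lay the other way, with CDH1 at 0.0655, 0.193, and 0.132 CPM in “Vec” and 1.36, 2.33, and 0.822 CPM in “WWOX,” COL1A1 at 0.196, 0.451, and 0.329 CPM against 1.89, 0.518, and 0.960 CPM, and LUM averaging 0.416 and 1.10 CPM, the last with overlap. KRT8 averaged 23.7 and 19.1 CPM and PDGFRB 1.86 and 1.63 CPM, also with overlap. Of the 4 epithelial genes 1 was at 3 tags or fewer in every library of each variant, and of the 7 fibroblast and pericyte genes 2 were, with DCN at 0 in “Vec.” Their part in the SMOC2 result was not tested.

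SPARC (ENSG00000113140.11, chromosome 5, 151661096 to 151686975, minus strand), which binds collagen and calcium, was expressed in every library and was highest in U251MG. Values in U251MG were 90.1, 76.1, and 52.4 CPM in “Vec” and 62.2, 35.5, and 40.0 CPM in the libraries labelled “WWOX.” In U87MG they were 9.02, 31.9, and 16.6 CPM against 10.9, 7.40, and 6.27 CPM, and in DBTRG-05MG 40.0, 8.56, and 49.99 CPM against 9.08, 21.3, and 9.87 CPM. In T98G they were 6.54, 22.8, and 8.02 CPM in “Vec” and 18.1, 25.5, and 38.0 CPM in “WWOX.” The variants overlapped in every line. SPARC had a log2FC of 1.25 in T98G, against −0.68 in U251MG, −1.09 in DBTRG-05MG, and −1.10 in U87MG (standard error 0.53), none called in the main model or under any of the 10 alternatives. Without T98G “Vec” replicate 2 it was 1.71 in T98G, and with 1 “WWOX” library left out −0.83 to −0.50 in U251MG, not called either. In U87MG it ran from −1.53 without “Vec” replicate 1 to −0.64 without “Vec” replicate 2, also not called. In T98G the overlap came from “Vec” replicate 2. In the order of the 8 groups each overlapped with the next.

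The long non-coding RNA CLMAT3 overlaps SPARC on the opposite strand, with log2FC of −0.51, −0.63, −0.17, and −1.24 in U87MG, T98G, U251MG, and DBTRG-05MG. Of the 7 tested genes within 500 kb of SPARC, ATOX1 was called, in DBTRG-05MG alone.

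SPOCK1 (ENSG00000152377.14, chromosome 5, 136975298 to 137598379, minus strand), a testican with heparan and chondroitin sulfate chains, was led by DBTRG-05MG. This line had 298, 172, and 564 CPM in “Vec” and 301, 502, and 269 CPM in “WWOX,” above every library of the other lines. U251MG followed with 61.9, 43.7, and 42.5 CPM in “Vec” and 106, 31.3, and 96.9 CPM in the libraries labelled “WWOX.” U87MG had 13.8, 17.7, and 15.8 CPM against 54.6, 23.8, and 17.5 CPM. T98G was lowest with 4.92, 6.70, and 2.57 CPM against 1.02, 4.16, and 2.64 CPM. The order of the lines was clear at both ends, whereas the variants of each line overlapped, with log2FC of 0.10 in DBTRG-05MG, 0.48 in U251MG, 0.78 in U87MG, and −0.82 in T98G (standard error 0.44). It was −0.61 in T98G without “Vec” replicate 2, and 0.25 to 0.81 in U251MG with 1 “WWOX” library left out. In U87MG it ran from 0.34 without “WWOX” replicate 1 to 1.10 without “WWOX” replicate 3. In “Vec” the mean of DBTRG-05MG was 72.9-fold that of T98G.

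**Figure D2:**
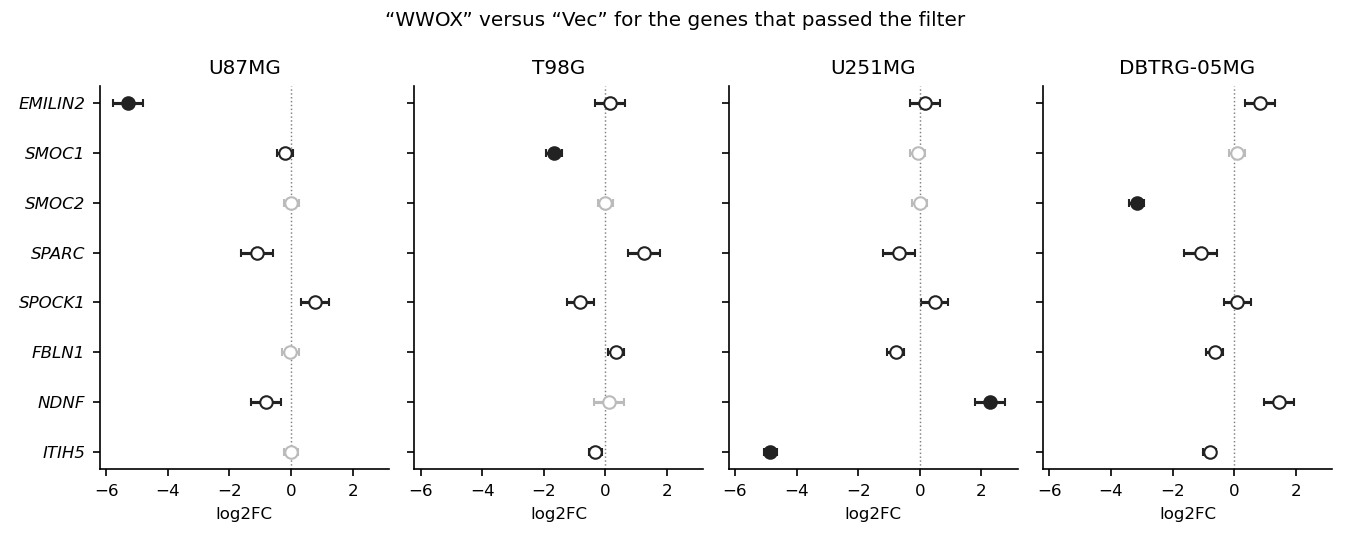
The horizontal axis is log2FC of “WWOX” versus “Vec,” on log2(CPM + 0.5) after scaling, for the 8 genes that passed the filter, with bars of 1 standard error from the model of all 24 libraries. Filled points were called, open points were not, and grey points have both groups at or under 3 tags per library. EMILIN2 in U87MG (−5.29), SMOC1 in T98G (−1.66), ITIH5 (−4.86) and NDNF (2.27) in U251MG, and SMOC2 in DBTRG-05MG (−3.16) are filled.

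FBLN1 (ENSG00000077942.19, chromosome 22, 45502238 to 45601135, plus strand) divided the lines widely. All U87MG libraries were at or under 3 tags, between 0.122 and 0.169 CPM, while DBTRG-05MG “Vec” libraries had 245, 215, and 165 CPM. The mean of DBTRG-05MG “Vec” was at least 953-fold higher than the limit of 3 tags per library in U87MG. In DBTRG-05MG “WWOX” libraries had 151, 130, and 136 CPM, all below the “Vec” libraries, with a log2FC of −0.63 (standard error 0.27) that was not called. U251MG had 145, 117, and 163 CPM in “Vec” and 69.4, 103, and 77.8 CPM in the libraries labelled “WWOX.” These did not overlap as deposited but did after scaling, and the log2FC of −0.78 was not called. Without U251MG “WWOX” replicate 2 it was −1.17 and was called, and without replicates 1 and 3 in turn it was −0.57 and −0.63 and was not. T98G had 46.3, 46.8, and 24.5 CPM in “Vec” and 52.6, 45.6, and 45.0 CPM in “WWOX,” which overlapped, with a log2FC of 0.34, or 0.42 without “Vec” replicate 2.

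NDNF (ENSG00000173376.14, chromosome 4, 121035613 to 121073021, minus strand) had log2FC of opposite signs in U251MG and U87MG. This difference between lines was not tested. In U251MG it had 1.46, 0.318, and 0.201 CPM in “Vec” and 6.45, 3.65, and 4.26 CPM in the libraries labelled “WWOX.” All 3 of the latter were above the former, with means of 0.660 ± 0.695 and 4.79 ± 1.47 CPM and a log2FC of 2.27 (standard error 0.48). The call depended on the settings. It was lost under 7 of 10 alternatives and with any of 16 of the 24 libraries left out. With a library left out, called or not, the log2FC ran from 1.99 without U251MG “Vec” replicate 3 to 2.74 without U251MG “Vec” replicate 1. Of the libraries that stood apart, leaving out U251MG “WWOX” replicate 2 or 3 gave 2.22 and 2.42, both called, and leaving out replicate 1 gave 2.13, not called. In U87MG the values of 5.11, 8.27, and 4.35 CPM in “Vec” were above those of 3.49, 2.24, and 3.98 CPM in “WWOX,” with a log2FC of −0.82 that was not called. Separate groups were found for 17.5% of the genes tested in U87MG and for 10.4% in U251MG.

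In DBTRG-05MG, NDNF was at 5.04, 1.42, and 5.66 CPM in “Vec” and at 4.31, 18.5, and 16.7 CPM in “WWOX.” A single “WWOX” library made these groups overlap. The log2FC of 1.46 was not called, but without DBTRG-05MG “WWOX” replicate 1 it was 2.13 and was called. In T98G both groups were at or under 3 tags per library. RN7SKP137 lies within NDNF on the same strand and NDNF-AS1 on the opposite strand.

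ITIH5 (ENSG00000123243.15, chromosome 10, 7559270 to 7666998, minus strand) was high in U251MG “Vec” alone. These libraries had 13.1, 14.2, and 18.4 CPM, and the libraries labelled “WWOX” had 0, 0, and 0.0676 CPM, the last being a single tag. The groups did not overlap, and mean CPM fell from 15.2 ± 2.8 to the limit of detection, at least 73.2-fold lower. The log2FC of −4.86 (standard error 0.22) depends on the pseudocount and is not a bound. ITIH5 was called under all 10 alternatives, and with each library left out, where log2FC ran from −4.93 to −4.70. All 3 libraries labelled “WWOX” of U251MG were among those that stood apart, so the result cannot be given without all of them.

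DBTRG-05MG followed with 0.786, 0.837, and 1.19 CPM in “Vec” and 0.531, 0.454, and 0.0685 CPM in “WWOX.” All “WWOX” libraries were lower, and the log2FC of −0.80 was called only without a filter on low values. T98G averaged 0.190 and 0.0530 CPM, and U87MG had 0 tags in every library. No annotated gene overlaps ITIH5. Within 500 kb, 5 genes were tested, with a median log2FC of −0.39 in U251MG and none called, and KIN, the nearest, had −0.40. The sum of the 6 endothelial markers in U251MG was 2.34, 3.18, and 4.30 CPM in “Vec” and 4.72, 7.85, and 13.5 CPM in the libraries labelled “WWOX,” in ascending order. Of the 6 genes, 4 were at 3 tags or fewer in every library of each variant, PECAM1 and TEK were at 0 in “Vec,” CLDN5 and TEK in “WWOX,” and ESAM, the most abundant over all libraries, averaged 0.312 and 0.343 CPM. The sum was mostly CDH5, with 3.81, 2.71, and 2.01 CPM in “Vec” and 13.2, 4.43, and 7.17 CPM in “WWOX.” Their part in the ITIH5 and NDNF results was not tested.

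**Figure D3:**
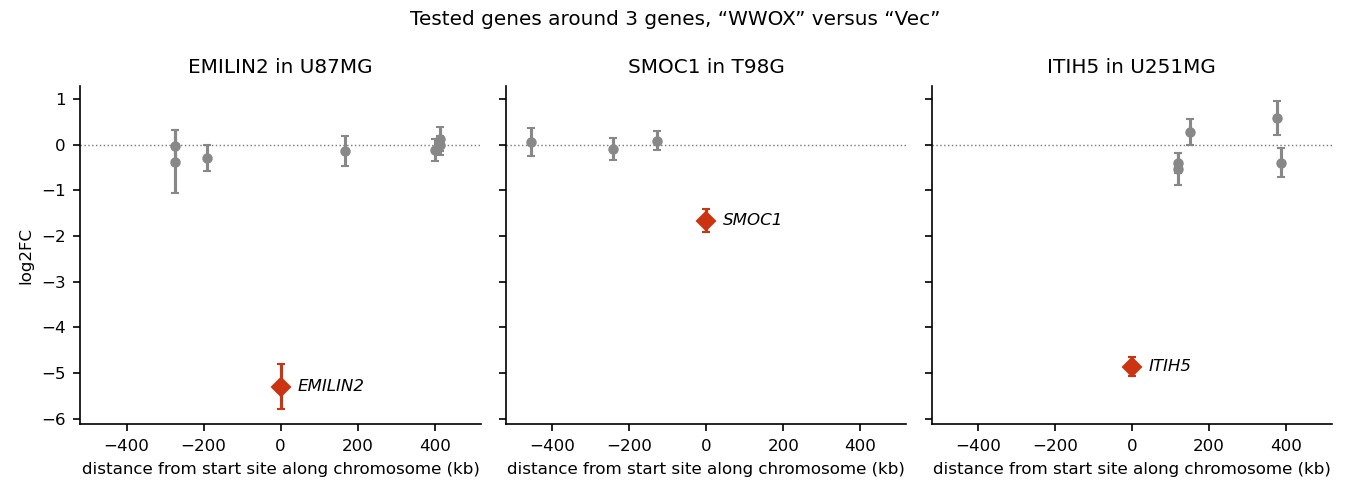
Red diamonds are EMILIN2 in U87MG, SMOC1 in T98G, and ITIH5 in U251MG, and grey points are the tested genes whose starts lie within 500 kb, placed by distance along the chromosome. The vertical axis is log2FC of “WWOX” versus “Vec” with bars of 1 standard error. The 7 neighbours of EMILIN2 lie between −0.37 and 0.12, the 3 of SMOC1 between −0.10 and 0.09, and the 5 of ITIH5 between −0.53 and 0.57.

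Among the 10 genes, “WWOX” libraries lay entirely below “Vec” libraries on scaled values for 2 genes in U87MG (EMILIN2 and NDNF), 2 in T98G (SMOC1 and EMILIN1), 1 in U251MG (ITIH5), and 4 in DBTRG-05MG (SMOC2, ITIH5, FBLN1, and EMILIN1). They lay entirely above for NDNF in U251MG, and for none of the 10 in the other lines. Over all genes tested, the shares below were 9.73%, 9.21%, 5.01%, and 10.3% in U87MG, T98G, U251MG, and DBTRG-05MG, and the shares above were 7.74%, 7%, 5.43%, and 9.46%. Since the genes were chosen with these results known, nothing is read from the counts.

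The genes whose pattern was most like that of each gene were looked for among 9932 tested genes with a mean of at least 5 CPM. Pearson r was taken over the 24 libraries, which share 4 lines, so that a high r mostly follows the order of the lines. FBLN1 was most like ZFP82, ZNF600, and ZNF256, all on chromosome 19 (r from 0.99 to 0.98). SMOC1 was most like CYP1B1, GALNT18, and POU2F2 (0.97), SPOCK1 most like MFAP3L, ACSS3, and PLCE1 (0.95), and NDNF most like RORA, SMIM3, and DDIT4L (0.91 to 0.90). Lower values were found for SPARC with BOC, PCDHGA9, and NCKIPSD (0.84 to 0.81), SMOC2 with SULT1B1, PAGE5, and TFF2 (0.83 to 0.81), EMILIN2 with IL36RN, C11orf96, and RAB31 (0.82 to 0.81), and ITIH5 with CXCL14, PARP14, and SEMA6B (0.78 to 0.75).

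With the mean of each line subtracted, what remains is the difference of variants and the spread of libraries. EMILIN2 then was most like HSBP1L1, also on chromosome 18 (0.92), TWIST2 (0.88), and HHIPL2 (0.87). SMOC2 was most like CADPS, TMPRSS15, and PCDH11X (0.93 to 0.91), and NDNF most like ADM, MAN2B2, and SEZ6L2 (0.89 to 0.81). ITIH5 was most like BASP1, PTCHD4, and ANXA6 (0.87 to 0.83). SMOC1 was most like GPC4 (0.86), H2BC12 (0.81), and MFAP2 (0.78), the last a microfibril protein from the lists of matrix genes described next. SPARC was most like OLFML3, PRRC2B, and BOC (0.84 to 0.79), SPOCK1 most like FRS2, SCYL2, and LYRM7 (0.83 to 0.82), and FBLN1 most like EMG1, VARS1, and PUS1 (0.78 to 0.77).

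A wider set of 104 matrix genes and their partners in 6 lists by function was also examined, of which 68 were tested. Of these, 7 were called in U87MG (10.3%, 5 higher and 2 lower), 5 in T98G (7.35%, 1 higher and 4 lower), 0 in U251MG, and 1 in DBTRG-05MG (1.47%, higher). The shares called among all genes were 3.2%, 1.14%, 0.316%, and 1.02%, of which 1.54% were higher in U87MG, 0.333% in T98G, and 0.519% in DBTRG-05MG. Of the called genes, 4 in U87MG (FBLN5, DCN, LUM, and TNFAIP6), 2 in T98G (POSTN and CCN4), and BMP4 in DBTRG-05MG passed the filter only through the group in which they are high, so nothing is read from these counts against the shares of all genes, and for these 7 genes the log2FC are a description and no adjusted p is given. Without the filter FBLN5, LUM, POSTN, CCN4, and BMP4 were still called, and DCN and TNFAIP6 were not. The 68 genes had a median log2FC of 0.20 in DBTRG-05MG, 0.16 in U251MG, 0.03 in U87MG, and −0.12 in T98G. The medians of all genes tested lay between −0.04 and 0.00. Besides the 0 called by limma in U251MG, 15 of the 68 genes had an unadjusted p under 0.05 (22.1%), while 11.5% of all genes tested did, and edgeR and limma-voom called 0 and DESeq2 called 1. In U87MG, T98G, and DBTRG-05MG the shares with an unadjusted p under 0.05 were 29.4%, 20.6%, and 16.2%. Those of all genes were 11.5%, 11.5%, and 7.63%. Nothing is read from these shares either.

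Of 17 listed relatives 7 were tested, with 2 called in U87MG and 1 in T98G. FBLN5 (fibulin 5), which assembles elastic fibres, fell in U87MG from 7.17, 6.03, and 4.42 CPM in “Vec” to 0.489, 0.543, and 0.423 CPM in “WWOX,” lower in 3 of 3 libraries. Its log2FC was −2.75 (standard error 0.37). FBLN5 reached 5 CPM in U87MG “Vec” alone, the group in which it is high. EFEMP1 (fibulin 3) was called in 2 lines. In T98G it rose from 15.3, 90.0, and 14.01 CPM to 155, 141, and 197 CPM, higher in 3 of 3 libraries, with a log2FC of 2.57 (standard error 0.44, adjusted p = 0.0027). Without T98G “Vec” replicate 2, the highest of its group, log2FC was 3.36. With T98G modelled alone, where 0 of all genes tested were called, it was not called. In U87MG it rose from 1.31 ± 0.44 to 5.44 ± 2.17 CPM (log2FC 1.64, adjusted p = 0.041), a call lost under 6 of 10 alternatives and with any of 12 libraries left out.

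Of 13 tested genes of elastic fibres, 2 were called, both lower in T98G. LTBP1, which tethers latent TGF-β to microfibrils, fell from 4.29 ± 1.58 to 0.900 ± 0.272 CPM (log2FC −1.77, adjusted p = 0.027). The call was lost under 4 alternatives, and with T98G “Vec” replicate 1 or 3 or “WWOX” replicate 2 or 3 left out, with log2FC from −1.82 to −1.52 in these 4 cases. Without T98G “Vec” replicate 2 log2FC was −1.99 and was called. MFAP2, a microfibril glycoprotein, fell from 0.984, 1.82, and 0.467 CPM to 0.186, 0, and 0 CPM, at least 4.67-fold lower (adjusted p = 0.0061). Its log2FC was −1.47, and −1.20 without T98G “Vec” replicate 2, both called. It was not called without T98G “WWOX” replicate 3 (log2FC −1.39) or in a model of T98G alone, which called 0 of all genes tested. The list median was −0.47 in T98G and 0.50 in U251MG.

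Of 14 tested matricellular genes, 2 were called, also lower in T98G. POSTN (periostin) fell from 1.62, 6.33, and 1.63 CPM to 0.372, 0.0742, and 0.0660 CPM (log2FC −2.31, standard error 0.34), lower in 3 of 3 libraries. POSTN passed the filter of 5 CPM only through T98G “Vec” replicate 2, so that it was not tested without this library. In a model of T98G alone POSTN was not called, nor was any other gene tested. CCN4, a target of WNT signalling, fell from 7.17, 7.02, and 7.47 CPM to 1.58, 2.30, and 1.91 CPM (log2FC −1.69), and it reached 5 CPM in T98G “Vec” alone. Although these groups were far apart, the call was lost under 6 alternatives and without T98G “Vec” replicate 1 or 3 or any 1 “WWOX” library of T98G, with log2FC from −1.80 to −1.59. Without T98G “Vec” replicate 2 log2FC was −1.78 and was called.

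Of 9 tested genes of hyaluronan and proteoglycans, 3 were called, all higher in U87MG. LUM (lumican) was at 0.213, 0.0773, and 0.281 CPM in “Vec” and at 15.1, 3.73, and 1.36 CPM in “WWOX” (log2FC 2.88, standard error 0.48), and log2FC was 3.57 without U87MG “WWOX” replicate 3. LUM passed the filter only through U87MG “WWOX” replicate 1 and was not tested without it, and it was not called in a model of U87MG alone. DCN (decorin) averaged 1.16 ± 0.40 and 5.90 ± 5.21 CPM (log2FC 1.50), and it reached 5 CPM in U87MG “WWOX” alone. TNFAIP6, which moves heavy chains of the ITIH family onto hyaluronan, averaged 1.21 ± 0.63 and 4.49 ± 3.48 CPM (log2FC 1.33). For both, 1 of 3 “WWOX” libraries was within the range of “Vec.” “WWOX” replicate 1 of U87MG was the highest library for all 3 genes. The DCN call was lost under 6 of 10 alternatives and with any of 20 libraries left out, and log2FC ran from 0.86 without U87MG “WWOX” replicate 1 to 2.28 without replicate 3. The TNFAIP6 call was lost under 7 alternatives and with any of 17 libraries left out, and log2FC ran from 1.07 without U87MG “Vec” replicate 3 to 1.79 without “WWOX” replicate 3, while without “WWOX” replicate 1 TNFAIP6 did not pass the filter. DCN and LUM are also among the 7 fibroblast and pericyte markers, whose sum was lower in U87MG “WWOX.”

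Of 6 tested genes of basement membranes, AGRN (agrin), a heparan sulfate proteoglycan, was called. It rose in U87MG from 30.9, 25.4, and 28.8 CPM to 107, 86.1, and 59.5 CPM (log2FC 1.46, standard error 0.37, adjusted p = 0.026), and the call was lost without U87MG “Vec” replicate 2 or 3 or “WWOX” replicate 1 or 2, of which the lowest log2FC was 1.29 without “WWOX” replicate 1. Of 19 tested ligands and receptors, TGFB3 fell in U87MG from 5.33, 12.2, and 7.58 CPM to 2.69, 2.99, and 2.37 CPM (log2FC −1.47, adjusted p = 0.027), and BMP4 rose in DBTRG-05MG from 1.24, 1.29, and 1.12 CPM to 5.43, 3.82, and 3.29 CPM (log2FC 1.34). The TGFB3 call was lost under 7 alternatives and without U87MG “Vec” replicate 2 or 3 or any 1 “WWOX” library of U87MG, with −1.16 without “Vec” replicate 2. BMP4 passed the filter only through DBTRG-05MG “WWOX” replicate 1 and was not tested without it. It was not called with edgeR or in a model of DBTRG-05MG alone. Without U87MG “WWOX” replicate 1, only 1 gene of the wider set was called in U87MG.

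**Figure D4:**
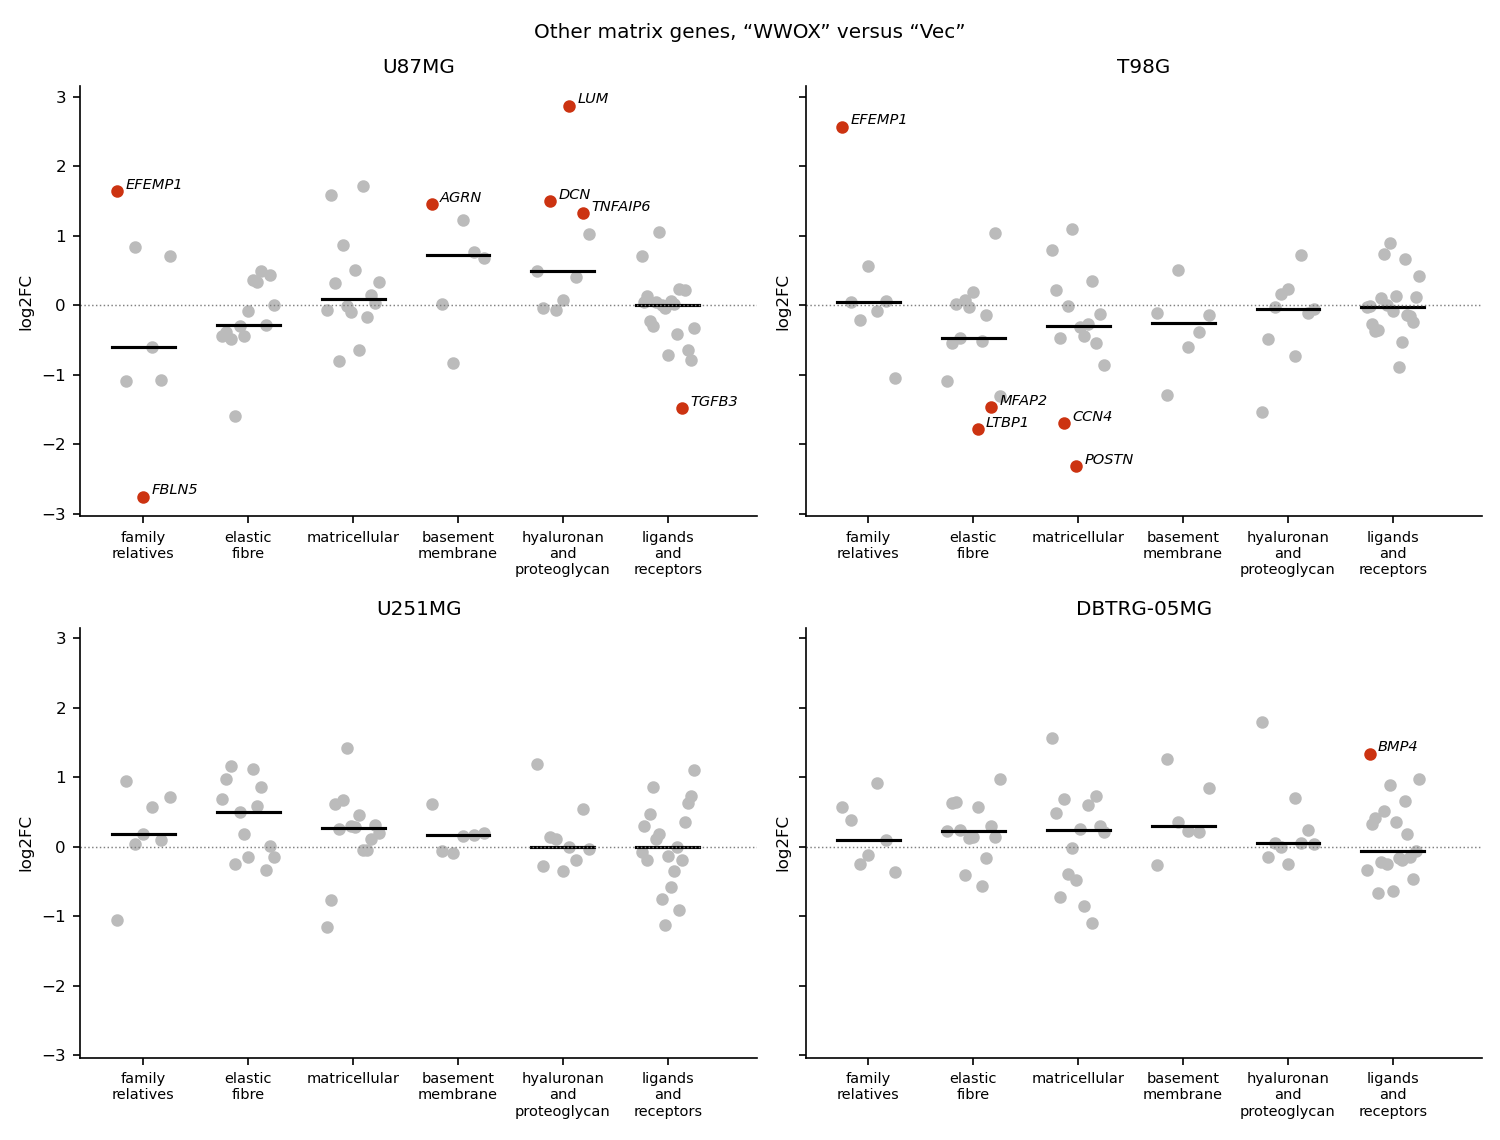
Each panel is 1 line, with log2FC of “WWOX” versus “Vec” on the vertical axis and the 6 lists of matrix genes and partners on the horizontal axis. Each point is 1 of the 68 tested genes, red points with names were called, grey points were not, and black lines are list medians. U87MG has 7 red points, T98G has 5, DBTRG-05MG has 1, and U251MG has 0, with LUM (2.88) the highest and FBLN5 (−2.75) the lowest of those in U87MG.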

How the data were processed

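The authors aligned CAGE-Seq reads to hg38 with STAR, counted tags with SAMtools, and deposited counts per gene scaled to CPM. The submitters' processing notes also name limma 3.42. Every deposited CPM value was a whole number of tags (100% within 0.01 tag), so tags were recovered from totals of 10756072 to 16953689 per library. The 24 single-library files held the values of the table, and 43033 of 43037 genes were matched to a symbol. All of its columns were used.

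Libraries were scaled with trimmed means of M-values, and log2(CPM + 0.5) was taken, which understates changes of low genes. The filter kept 12327 genes that reached 5 CPM in 1 library or more. A limma model with a trend, 8 groups, and 16 residual degrees of freedom gave two-sided p-values with Benjamini-Hochberg adjustment over all of these genes (threshold 0.05). The p-values measure the spread between these libraries. No pair of libraries agreed within sampling noise.

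The 10 genes, the lists, and the tests were chosen with earlier results of these data known. Named were WWOX, the 10 genes, up to 3 called genes of each list and line with the largest log2FC, the 3 genes most like each tested member in either measure, the most abundant gene of each marker list, and the nearest neighbours within 500 kb. A result that this rule would name is not reported here. Other marker genes and ATOX1 were named after their values were seen. Positions come from GENCODE 44, and promoter windows from RefSeq.

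Alternatives were pseudocounts of 1 and 0.1, omission of the filter, unscaled CPM, scaling by the median of ratios, a model for each line alone, and a block for the replicate number. Recovered tags were tested with DESeq2, limma-voom, and the quasi-likelihood test of edgeR, and each library was left out in turn. Tools were matplotlib 3.10.9, pandas 2.3.3, numpy 2.4.6, and Python 3.11.15, and DESeq2 1.42.0, edgeR 4.0.16, and limma 3.58.1 in R 4.3.3.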

Additional observations from a re-analysis of the deposited data

Results flagged for a closer look

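Among 21 named genes that were tested, 4 had “WWOX” libraries entirely above “Vec” libraries in 1 line and entirely below in another, on scaled values. Many of the 21 were named because they were called, and the same count over all genes tested was not made. Separation in a single direction within a line was found for 5.01% to 10.3% of all genes tested. Nothing is read from the count of 4. The difference between lines was not tested for any of them. NDNF had a log2FC of −0.82 in U87MG and 2.27 in U251MG. EFEMP1 had 2.57 in T98G, 1.64 in U87MG, and 0.57 in DBTRG-05MG, but −1.05 in U251MG, where the groups overlapped on CPM as deposited. LTBP1 had 0.57 in DBTRG-05MG, 1.11 in U251MG, and −1.77 in T98G, and its groups in U251MG likewise overlapped as deposited. Its groups in DBTRG-05MG and T98G were separate as deposited too, so its opposite directions did not rest on U251MG alone. CCN4 had −1.69 in T98G. In U251MG, with a fitted 0.25, both groups were at or under 3 tags per library, so no direction is read there. All 4 involve U251MG, where the libraries labelled “WWOX” stood apart from each other. The part of these libraries was not tested. Groups of 3 libraries are too small for a check of single values far from the rest.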

How the results depend on the processing

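Of the 5 called genes of the set, EMILIN2 in U87MG and ITIH5 in U251MG were called under all 10 alternatives, and SMOC1, SMOC2, and NDNF were lost under 1, 1, and 7. The genes were chosen with their log2FC known, and every setting used the same libraries. These counts therefore describe the settings and are not support for the differences. ITIH5 and SMOC2 also passed the filter only through the “Vec” group in which they are high. No log2FC of a called gene changed its sign. The number of genes called depended on the settings, and the cause was not tested beyond what each setting does. A pseudocount of 0.1 gave 23 genes in U251MG and 78 in DBTRG-05MG. Without a filter 618, 271, 114, and 395 genes were called in U87MG, T98G, U251MG, and DBTRG-05MG, and 4 of the wider set in U87MG. With CPM as deposited 4 of the wider set were called in U87MG. A separate model per line, with fewer samples, gave 213, 0, 3, and 38 genes, and 2 of the wider set in U87MG and 0 in T98G. With edgeR 14 genes were called in U251MG and 49 in DBTRG-05MG, with 0 of the wider set. With limma-voom 23 were called in U251MG. With DESeq2 273 were called in T98G and 162 in U251MG, with 8 and 1 of the wider set, and 2 in DBTRG-05MG. Deviations of libraries with the same replicate number correlated at −0.55 to −0.24 (DBTRG-05MG), −0.40 to 0.08 (U251MG), −0.36 to 0.51 (T98G), and −0.15 to 0.34 (U87MG). Those of libraries with different numbers reached 0.64 (DBTRG-05MG), 0.70 (U251MG), 0.57 (T98G), and 0.32 (U87MG). The labels state no pairing, and these values do not settle whether samples were prepared in pairs. The main model did not pair them. With the replicate block 76 genes were called in DBTRG-05MG, 23 in U251MG, and 63 in T98G.

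With 1 library left out, there were 74 to 149 genes called in DBTRG-05MG, 13 to 557 in U251MG, 45 to 394 in T98G, and 253 to 491 in U87MG. Genes of the wider set numbered 0 to 2, 0 to 2, 2 to 5, and 1 to 8 in the same order. A lone library of 2 left is then assumed to vary like the other groups. Depth limits all statements on values of 3 tags or fewer.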
